A study of Homo sapiens with 6 samples.

Results

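The gene TKTL1 and 6 other genes of the pentose phosphate pathway (TKT, TALDO1, PGLS, PGD, RPIA and RPE) were followed in HAP1 cells with and without an edit of CTCF. Members were the rows of the count table whose Ensembl identifiers carry these 7 symbols, and all 7 were found among 57773 genes and passed the filter on low counts, as 14835 genes did. The set was selected on the difference between the genotypes in these same counts: TKTL1 was chosen by its low mutant level, and the other 6 were added as enzymes of its pathway with that difference in view. Values of all 7 in this comparison are therefore a description, without a test of their own.

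PolyA RNA was sequenced from HAP1, a human line with a nearly haploid genome that goes back to a chronic myeloid leukaemia, either wild type (3 libraries) or with the CTCF substitutions Y226A and F228A (3 libraries). The edit was made with Cas9 and a repair oligonucleotide that also carried a silent change, clones were selected with puromycin, and no other treatment is named for either genotype. Gene counts do not show whether a library carries the substitutions. Descriptions of the mutant libraries share 1 clone-like number, and the labels state neither separate clones nor separate cultures, so the substitutions and the state of the edited clone cannot be told apart, and the p-values rest on library-to-library spread that may be technical. In bulk RNA, fewer cells expressing a gene and less RNA per cell cannot be told apart either. Libraries held 7764009 to 9610028 gene counts. Of 12 blood markers, 5 had no count in any library (PTPRC, SPI1, GATA1, HBG1 and MPO) and 5 had at most 7 counts in all. The other markers differed between the genotypes: TAL1 was higher in the mutant, at 67.5 ± 3.57 against 31.9 ± 2.49 CPM (SD over 3 libraries; CPM are gene counts scaled to a common library size; edgeR adjusted p = 1.89e-09). RUNX1 fell from 8.9 ± 1.11 to 5.84 ± 0.332 CPM (adjusted p = 0.009), a call lost without wild-type replicate 1 (0.0597). Of the fusion partners of the parental leukaemia, BCR had 23.6 ± 2.86 and 20.3 ± 2.3 CPM and was not called. ABL1 fell from 23.9 ± 1.54 to 19.2 ± 1.15 CPM (adjusted p = 0.0304), a call lost with DESeq2 (0.0903) and without wild-type replicate 1 or 3 or mutant replicate 1 or 3 (0.064 to 0.135). The part of these markers in the results on TKTL1 was not tested.

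The pentose phosphate pathway branches off glycolysis at glucose 6-phosphate. Its oxidative branch yields NADPH for reductive synthesis and antioxidant defence, and leads to ribulose 5-phosphate. In its non-oxidative branch, an isomerase and an epimerase interconvert pentose phosphates, and transketolase and transaldolase exchange carbon units between sugar phosphates, which links ribose 5-phosphate for nucleotide synthesis to glycolytic intermediates. Transketolase needs thiamine diphosphate as cofactor. TKTL1 and TKTL2 encode transketolase-like proteins, and whether TKTL1 has transketolase activity of its own has been disputed.

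The coding sequences of TKT and TKTL1 were compared to see how far their reads could be confused. Over the longest annotated coding sequences (GENCODE v29), TKT (1893 bases) and TKTL1 (1788 bases) matched at 65.7% of 1752 aligned bases, with no identical run longer than 20 bases. TKTL1 was closer to TKTL2, with 79.25% identity over 1764 aligned bases. Stretches of 50 bases of TKT transcripts occurred in no other annotated gene (0 of 10055), and for TKTL1 118 of 3777 did, all in TEX28, which starts on the opposite strand over the first bases of TKTL1 and was not analysed here.

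TKTL1 mRNA was nearly absent from the mutant libraries. TKTL1 (ENSG00000007350.12, plus strand, chrX:154295671-154330350 of GRCh38) had 263, 225 and 222 counts in the wild-type libraries and 6, 2 and 2 in the mutant libraries. After scaling for library size this was 27.3, 28.6 and 28 CPM against 0.686, 0.259 and 0.211 CPM. The wild-type libraries had an SD of 2.32% of their mean, and the groups did not overlap. That spread is smaller than counting error alone would give at 222 to 263 counts, so it does not measure how steady TKTL1 expression was. Summed over libraries, 710 counts stood against 10, a ratio of 72.4 (95% counting interval 39.2 to 152, Clopper-Pearson conditional on the total, which covers counting error only). The fitted log2 difference of mutant over wild type was -6.13 (SE 0.229, 95% interval -6.60 to -5.65). This SE and interval were derived from the F statistic. The interval is narrower than the one from counting error only, so it understates the error of the TKTL1 difference. Mutant replicate 1 held 6 of the 10 mutant counts, and without it the fitted value was -6.82. Among the 14835 tested genes, 42 had a lower fitted log2 difference.

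Both starts that RefSeq gives for TKTL1 are shown, with that of TKT, because the start regions of these paralogues differ in CpG content. Lines give the 250 bases before the start from RefSeq (GRCh38.p14), 5′ to 3′ on the gene's strand, with each CG in capitals.
TKTL1, first start, chrX:154295545-154295794, plus strand: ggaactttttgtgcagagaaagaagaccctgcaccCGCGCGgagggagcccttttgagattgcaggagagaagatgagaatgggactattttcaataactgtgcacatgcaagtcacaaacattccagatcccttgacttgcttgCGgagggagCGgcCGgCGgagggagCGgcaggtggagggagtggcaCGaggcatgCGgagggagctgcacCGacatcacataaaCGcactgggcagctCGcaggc
TKTL1, second start, chrX:154304920-154305169, plus strand: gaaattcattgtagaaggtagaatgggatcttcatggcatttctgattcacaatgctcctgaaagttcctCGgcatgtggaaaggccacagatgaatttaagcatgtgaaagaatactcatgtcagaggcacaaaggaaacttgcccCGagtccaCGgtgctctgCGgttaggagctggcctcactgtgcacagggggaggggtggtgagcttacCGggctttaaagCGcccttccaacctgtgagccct
TKT, chr3:53256023-53256272, minus strand: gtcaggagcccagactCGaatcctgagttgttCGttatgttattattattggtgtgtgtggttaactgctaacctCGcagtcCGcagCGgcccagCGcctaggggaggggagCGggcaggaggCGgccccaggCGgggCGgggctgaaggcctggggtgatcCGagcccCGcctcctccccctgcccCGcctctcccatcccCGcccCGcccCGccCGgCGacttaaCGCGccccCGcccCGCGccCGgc
These stretches hold 13, 6 and 24 CGs. In windows of 300 bases, from 250 before the start to 50 after it, TKTL1 had 18 and 8 CGs at its starts, TKT 31 and the other 5 members 24 to 44, against a median of 14 over all 35116 such windows. The motif GGGCGG, which overlaps CG, was found on either strand at the starts of all 6 other members and at neither start of TKTL1 (45% of all windows hold it). TGACNNNGC, the core letters of the antioxidant response element, was found at PGD and RPE (13.3% of all windows), and a core of the CTCF motif at RPE (10.6%). Neither was found in the TKTL1 windows, and TATAAA in no member window (11.5% of all). The GENCODE bounds of TKTL1 and TKT given with their values begin inside the first and the last of these stretches, so by that annotation part of each is transcribed. The counts do not show which start is used.

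**Figure D1:**
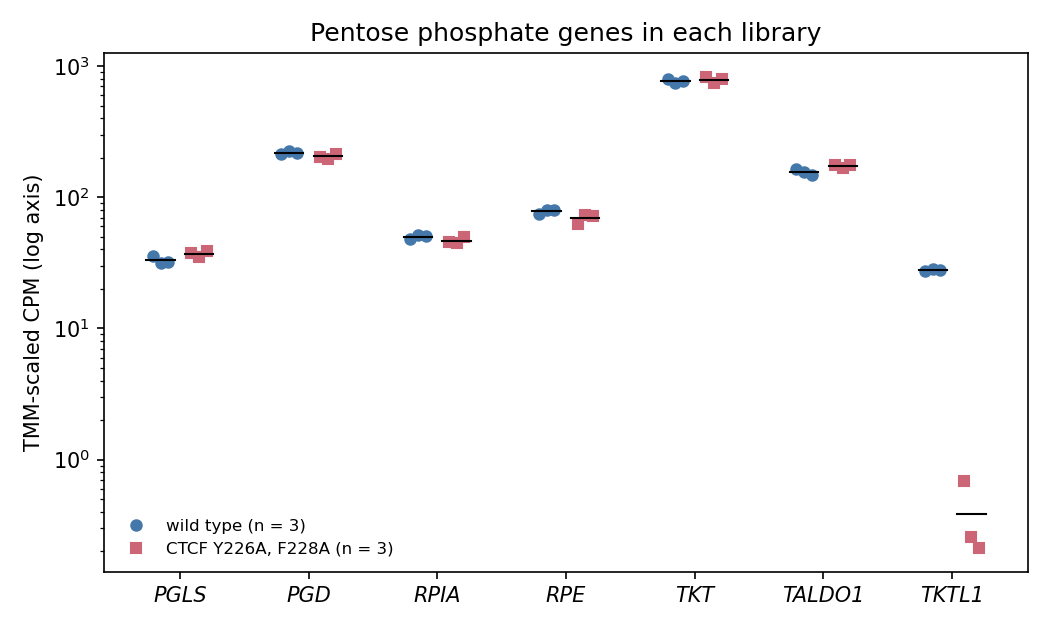
TMM-scaled CPM on a log axis for each of the 7 pentose phosphate genes, with circles for the 3 wild-type libraries, squares for the 3 mutant libraries and black bars for group means. TKTL1 lies between 27.3 and 28.6 CPM in the wild type and between 0.211 and 0.686 CPM in the mutant. For each of the other 6 genes, the wild-type and mutant libraries lie close together.

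PGLS and PGD of the oxidative branch lay near their wild-type levels. PGLS (ENSG00000130313.2, chr19:17511629-17521288, plus strand), the lactonase that hydrolyses 6-phosphogluconolactone, had 35.7, 31.5 and 32.3 CPM in the wild type and 37.4, 35.1 and 38.8 CPM in the mutant, with overlap between the groups. Its fitted log2 difference was 0.16 (SE 0.0867, interval -0.02 to 0.34). PGD (ENSG00000142657.16, chr1:10398592-10420144, plus strand), the 6-phosphogluconate dehydrogenase that yields NADPH and ribulose 5-phosphate, had 214, 224 and 217 CPM in the wild type and 204, 195 and 215 CPM in the mutant. These groups also overlapped, at a log2 difference of -0.09 (SE 0.053, interval -0.20 to 0.02).

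RPIA and RPE, which act on ribulose 5-phosphate, had slightly lower means in the mutant. RPIA (ENSG00000153574.8, chr2:88691644-88750935, plus strand), the isomerase that forms ribose 5-phosphate, had 48.3, 51.4 and 50.5 CPM in the wild type and 45.4, 44.7 and 50.1 CPM in the mutant, and the groups overlapped (log2 -0.10, SE 0.0776, interval -0.26 to 0.07). RPE (ENSG00000197713.10, chr2:210002565-210022259, plus strand), the epimerase that forms xylulose 5-phosphate, had 74.6, 80.0 and 80.6 CPM against 62.2, 73.1 and 71.8 CPM. Each mutant library of RPE lay below each wild-type library, with mutant replicate 1 the lowest, and the log2 difference was -0.18 (SE 0.0733, interval -0.34 to -0.03) and -0.11 without that library. RPE counts may be less certain than those of the other members, since 1193 of its 3990 stretches of 50 bases (29.9%) occur in other genes, mostly KANSL1L (788). Matches on either strand were included, and opposite-strand matches need not confuse counts made by strand. The strand setting of the counting is not given. The coding sequence of RPE also matches its paralogue RPEL1 at 97.51% of bases. RPEL1 itself had 9 ± 1.04 CPM in the wild type and 8.37 ± 1.12 CPM in the mutant and was not called (log2 -0.09, edgeR adjusted p = 0.748).

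TKT and TALDO1, which exchange carbon units in the non-oxidative branch, had slightly higher means in the mutant. TKT (ENSG00000163931.11, chr3:53224707-53256052, minus strand), the transketolase, had 794, 743 and 765 CPM in the wild type and 831, 742 and 794 CPM in the mutant. The groups overlapped, and the log2 difference was 0.04 (SE 0.0491), with an interval from -0.06 to 0.14 that allows at most 1.1-fold. TALDO1 (ENSG00000177156.6, chr11:747329-765024, plus strand), the transaldolase, had 165, 156 and 147 CPM in the wild type and 177, 167 and 176 CPM in the mutant. The lowest mutant library was above the highest wild-type library, at a log2 difference of 0.15 (SE 0.057, interval 0.03 to 0.27). Intervals here are for single genes and are not adjusted for the number of genes.

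By the rule used for all genes (edgeR adjusted p under 0.05), 1 of the 7 members was lower in the mutant (TKTL1), 0 were higher and 6 were not called, where 21.2% of all tested genes were called, 9.26% lower and 11.9% higher. At an unadjusted edgeR p under 0.05, TALDO1 was higher and RPE was lower beside TKTL1, and DESeq2 and limma-voom gave the same on these same counts. The share of all tested genes under this looser limit was not computed, and the 21.2% does not apply to it. By the adjusted rule, TALDO1 was also called without wild-type replicate 1, which made 2. The groups did not overlap for 3 of the 7 (TKTL1, TALDO1 and RPE), and for 35.5% of all tested genes, 16.5% lower and 19% higher in the mutant. Since the choice of TKTL1 used this comparison, nothing is read from these counts. In the authors' deposited table, the log2 fold change was -6.19 for TKTL1 and between -0.19 and 0.15 for the other 6.

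**Figure D2:**
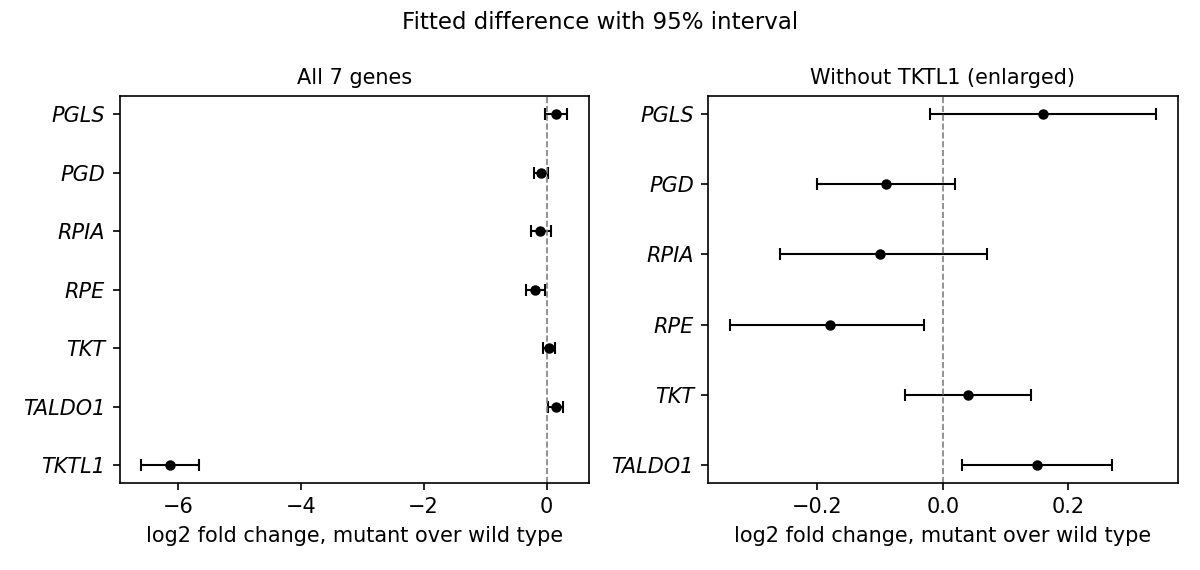
Fitted log2 fold change of mutant over wild type with its 95% interval for all 7 genes (left) and enlarged without TKTL1 (right). TKTL1 stands at -6.13, and the points of the other 6 genes lie between -0.18 and 0.16. The interval drawn for TKTL1 was derived from the F statistic and understates its error.

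Levels per length showed how small a part of transketolase family RNA TKTL1 was even in the wild type. In CPM per kilobase of the transcript with the longest coding sequence, the wild-type means were 370 for TKT, 116 each for TALDO1 and PGD, 32.3 for PGLS, 30.5 for RPE, 27.1 for RPIA and 10.6 for TKTL1. In this order TALDO1 overlapped PGD and PGLS overlapped RPE between libraries, and the other neighbours did not overlap. In the mutant the order of means was the same, at 380, 129, 109, 36.1, 26.9, 25.3 and 0.146, with overlap of RPE and RPIA only. TKTL1 made up 2.63, 2.94 and 2.79% of the summed level per length of TKT, TKTL1 and TKTL2 in the wild-type libraries and 0.0648, 0.0274 and 0.0209% in the mutant libraries. All mutant libraries lay far below all wild-type libraries in this share, which averaged 2.79 ± 0.152% for wild-type libraries and 0.0377 ± 0.0237% for mutant libraries (0.0242% without mutant replicate 1). With coding length in place of transcript length the wild-type share was 3.72 ± 0.201%. TKTL2 had no count in any library. An expected count of 3, taken as an approximate and not an absolute upper limit after a count of 0, corresponds to 0.312 to 0.389 CPM.

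Genes that share the cofactor of transketolase included a strongly lower thiamine transporter. Of 12 tested genes of thiamine transport and thiamine diphosphate enzymes, 2 fell, 1 rose and 9 were not called, with a median log2 change of -0.08 against 0.00 over all tested genes. Of all tested genes 21.2% were called, 9.26% lower and 11.9% higher. SLC19A3, a thiamine transporter of the plasma membrane, had 8.83, 5.60 and 7.06 CPM in the wild type and 1.37, 0.259 and 0.633 CPM in the mutant. The groups were far apart, and SLC19A3 fell by 3.21 on the log2 scale (SE 0.328, edgeR adjusted p = 2.35e-07), or by 3.92 without mutant replicate 1. That SE was derived from the F statistic and may understate the error, as the mutant libraries held 20 counts in all. SLC19A3 met the abundance limit for named genes only through its wild-type level. SLC19A2, the other thiamine transporter of this membrane, had 40 ± 2.67 and 41.1 ± 2.92 CPM (log2 0.04, adjusted p = 0.81). Its mention was decided with that value known. OGDHL, a 2-oxoglutarate dehydrogenase-like gene, rose by 0.30 (adjusted p = 0.0316), a call lost with DESeq2 (0.09) and without wild-type replicate 1 or mutant replicate 1 or 2 (0.0754 to 0.16). HACL1, a peroxisomal lyase, fell by 0.29 (adjusted p = 0.0358), a call lost with DESeq2 (0.0907) and without wild-type replicate 1 or 2 or mutant replicate 1 or 3 (0.0647 to 0.145). Only SLC19A3 was called in this list without wild-type replicate 1, without mutant replicate 1 and with DESeq2.

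Of 18 tested genes that handle ribose and other sugar phosphates, 2 rose, 1 fell and 15 were not called (median log2 change 0.00). The share called over all tested genes was 21.2%. PRPS2, a synthetase that turns ribose 5-phosphate into phosphoribosyl pyrophosphate, had 120, 120 and 121 CPM in the wild type and 138, 143 and 142 CPM in the mutant. It was higher in every mutant library, by 0.23 on the log2 scale (SE 0.0551, adjusted p = 0.00456). PGM1, a phosphoglucomutase, rose from 56.1 ± 0.96 to 68.2 ± 5.94 CPM (log2 0.28, adjusted p = 0.00934). PRPSAP1, which encodes a protein bound to these synthetases, fell by 0.21 (adjusted p = 0.0387). That call was lost with DESeq2 (0.0829), without the filter (0.0532) and without any single library (0.0521 to 0.153).

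**Figure D3:**
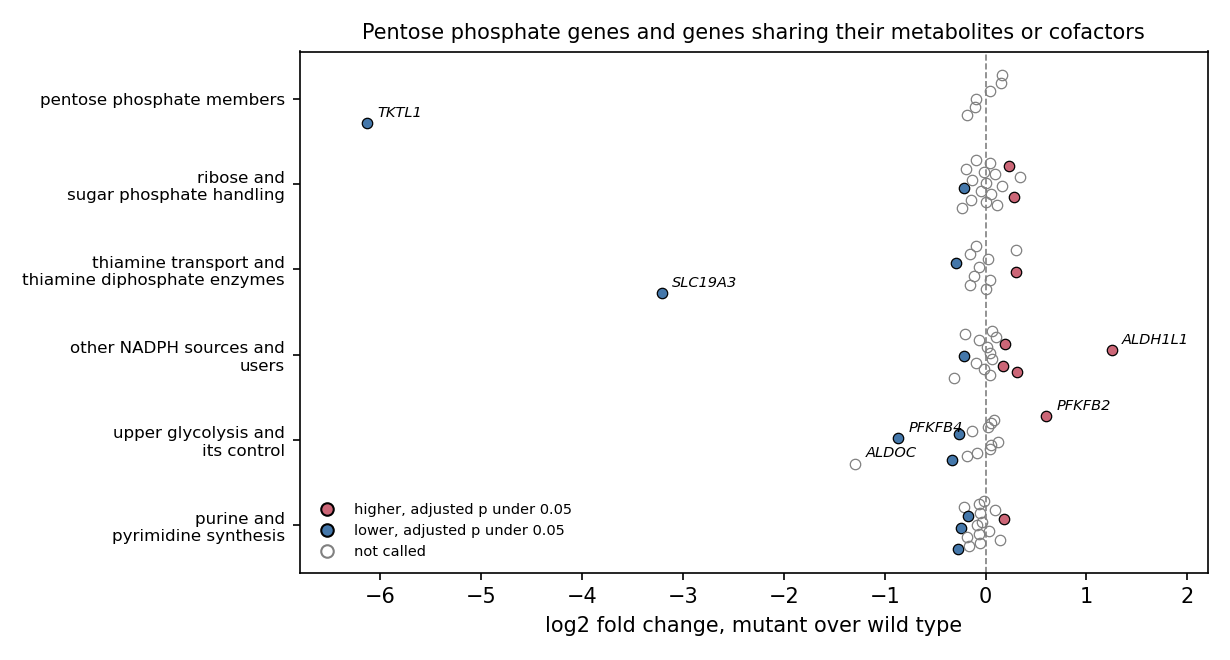
Log2 fold change of mutant over wild type for each tested gene of 6 lists, with filled points for genes called at an adjusted p under 0.05 and open points for the rest; genes beyond 0.55 in either direction are named. TKTL1 at -6.13 and SLC19A3 at -3.21 stand far to the left of all other genes shown, and ALDH1L1 at 1.25 is farthest to the right.

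Of 16 tested genes of other NADPH sources and users, 4 rose, 1 fell and 11 were not called (median 0.04). The share called over all tested genes was 21.2%. ALDH1L1, a cytosolic folate dehydrogenase that forms NADPH, had 2.49, 2.16 and 2.90 CPM in the wild type and 6.06, 4.54 and 7.28 CPM in the mutant. It was higher in every mutant library (log2 1.25, SE 0.231, adjusted p = 0.000363). ALDH1L1 met the abundance limit for named genes only through its mutant level. ME1, the cytosolic malic enzyme, which also forms NADPH, rose from 89.8 ± 4.11 to 111 ± 8.35 CPM (log2 0.31, adjusted p = 0.00164). MTHFD2, a mitochondrial folate enzyme, rose by 0.19 (adjusted p = 0.0199), and NADK, the cytosolic NAD kinase, fell by 0.21 (adjusted p = 0.0277). The call of MTHFD2 was lost with DESeq2 (0.0546), and both calls were lost without wild-type replicate 1 or 3 or mutant replicate 2 or 3 (0.0997 to 0.15 for MTHFD2 and 0.0674 to 0.152 for NADK). The remaining gene that rose was TXNRD1, a thioredoxin reductase (log2 0.17, adjusted p = 0.0155), named here with its value known. The TXNRD1 call was lost without wild-type replicate 1 or 3 or mutant replicate 3 (log2 0.13 to 0.16, adjusted p 0.0742 to 0.152). Leaving out those single libraries lowered the number called in this list from 5 to between 2 and 3.

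In upper glycolysis, 1 of 14 tested genes rose, 3 fell and 10 were not called (median -0.03), beside 21.2% called over all tested genes. PFKFB2, a bifunctional enzyme that sets the level of fructose 2,6-bisphosphate, had 11.5, 12.6 and 13.6 CPM in the wild type and 19.2, 21.3 and 16.8 CPM in the mutant. It rose by 0.60 (SE 0.126, adjusted p = 0.00131), and the groups did not overlap. Its relative PFKFB4 had 28.4, 17.8 and 13.0 CPM in the wild type and 10.9, 10.8 and 11.2 CPM in the mutant. Wild-type replicate 1 was the highest for PFKFB4, and the fall of 0.87 (adjusted p = 0.0432) was 0.49 without it. The PFKFB4 call was lost with DESeq2 and limma-voom (0.0636 and 0.0848) and without wild-type replicate 2 or any mutant library (0.121 to 0.215). TIGAR, a phosphatase that lowers fructose 2,6-bisphosphate, fell from 28.7 ± 1.74 to 23.0 ± 2.41 CPM (log2 -0.33, adjusted p = 0.0256), a call lost with DESeq2 (0.0665) and without wild-type replicate 1 or mutant replicate 1 (0.0995 to 0.12). ALDOC, an aldolase named here with its value known, had 24.2 ± 9.32 and 10 ± 2.72 CPM and was not called (log2 -1.29). HK2, a hexokinase, fell by 0.26 (adjusted p = 0.0134), a call lost without wild-type replicate 1 (log2 -0.23, adjusted p = 0.0766) or 2 (log2 -0.19, adjusted p = 0.0852). Without wild-type replicate 1 or 2 the number called in this list was 2.

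**Figure D4:**
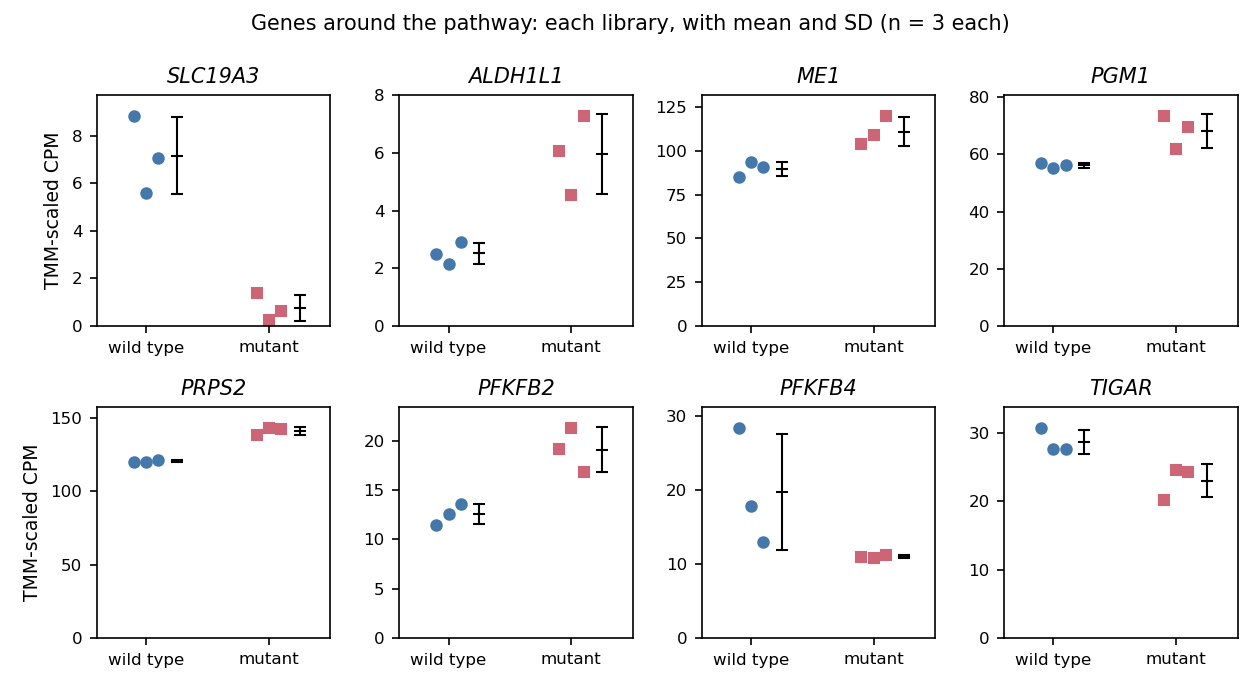
TMM-scaled CPM for 8 called genes of the lists around the pathway, on axes that start at 0, with circles for wild-type libraries, squares for mutant libraries and a bar for mean and SD (n = 3 each). SLC19A3 falls to 0.755 ± 0.566 CPM and ALDH1L1 rises to 5.96 ± 1.38 CPM, while PFKFB4 varies among wild-type libraries from 13.0 to 28.4 CPM.

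Of 17 tested genes of purine and pyrimidine synthesis, which draws on phosphoribosyl pyrophosphate, 3 fell, 1 rose and 13 were not called (median -0.07). Again, 21.2% of all tested genes were called. ATIC, which catalyses the last steps to IMP, had 255, 292 and 258 CPM in the wild type and 221, 224 and 238 CPM in the mutant. It fell by 0.24 (SE 0.0575, adjusted p = 0.00443) and was lower in every mutant library. PFAS, an earlier enzyme of that route, fell by 0.17 (adjusted p = 0.0231), a call lost without wild-type replicate 1 or 3 or mutant replicate 2 (0.0828 to 0.114). DHODH and CAD of pyrimidine synthesis went in opposite directions, at -0.27 (adjusted p = 0.0482) and 0.18 (adjusted p = 0.0194). The call of DHODH was lost with DESeq2 (0.126), without the filter (0.0637) and without any library but mutant replicate 1 (0.0708 to 0.176), and that of CAD without wild-type replicate 1 or 2 or mutant replicate 2 (0.0514 or more). Without wild-type replicate 1 or mutant replicate 2 only 1 gene of the list was called, and without wild-type replicate 2 it was 2.

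No tested neighbour of TKTL1 on chromosome X had a difference near its size. Since TKTL1 was chosen for that size in these counts, nothing is read from the contrast. Among the 10 annotated genes on either side that are also in the count table (GENCODE v29 order, GRCh38), 13 were tested, of which 2 rose, 2 fell and 9 were not called (median log2 change -0.05), counting 1 gene that is not described here. FLNA, the gene of the actin crosslinker filamin A, is the closest tested gene, at 18.2 kb after TKTL1, and rose by 0.26 (SE 0.0447, adjusted p = 0.000157). HCFC1, of a transcriptional cofactor, fell by 0.48 (SE 0.053, adjusted p = 5.52e-07). RENBP, of the renin-binding protein, fell by 0.53 (adjusted p = 0.0402). Its log2 value stayed negative (-0.68 to -0.39 with 1 library left out), but the call was lost with DESeq2 (0.128) and without wild-type replicate 1 or 3 or mutant replicate 2 or 3 (0.0787 to 0.188). Without wild-type replicate 1 or 3 or mutant replicate 2, the number of neighbours called was 2. The other 7 annotated neighbours had at most 56 counts in all and were not tested. With 20 genes on either side, 9 of 25 tested genes were called, 2 higher and 7 lower. On the whole of chromosome X, 97 of 595 tested genes rose (16.3%) and 67 fell (11.3%). Beside these counts, 11.9% of all tested genes rose and 9.26% fell, or 21.2% called in either direction.

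**Figure D5:**
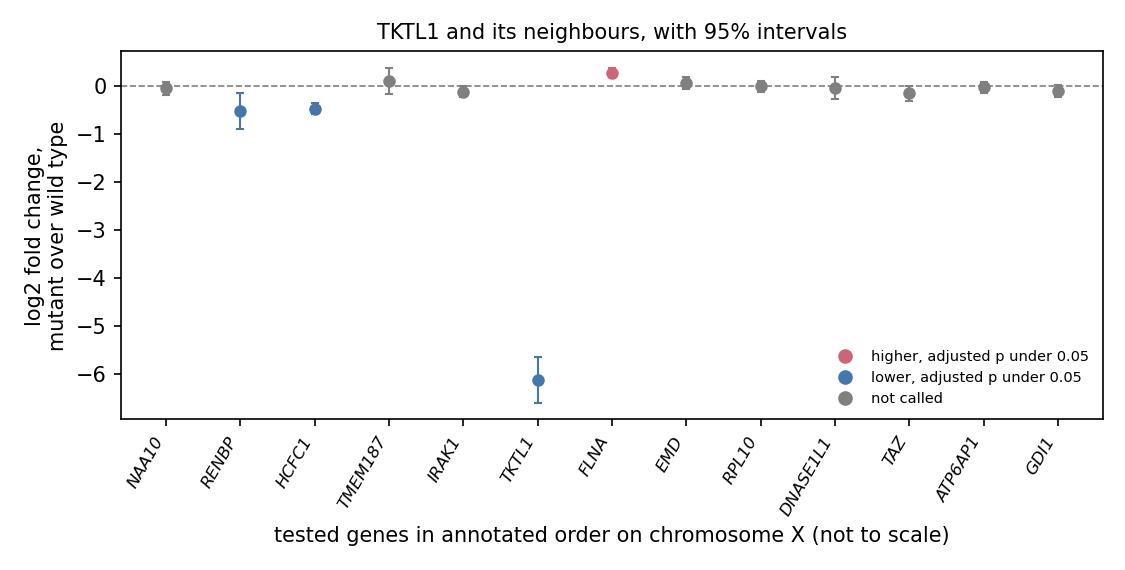
Log2 fold change of mutant over wild type with 95% intervals for TKTL1 and 12 of its 13 tested neighbours, in annotated order along chromosome X and not to scale. TKTL1 stands at -6.13, and the neighbours shown lie between -0.53 and 0.26. The interval drawn for TKTL1 was derived from the F statistic and understates its error.

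The expression pattern of TKTL1 over the 6 libraries was most like those of WBP5, BNC2, CECR1, RPUSD4 and PTGER3. Likeness was the Pearson correlation of log2 CPM among 12596 genes for which edgeR's abundance estimate over all libraries, the log2 of a mean level, was 2 or more. WBP5 and CECR1 passed this filter through their wild-type levels, as TKTL1 did. All 6 points share the 2 genotypes, so a high value mostly reflects a steady difference between them. WBP5, also on chromosome X (r = 0.9990), went from 327 counts to 1. BNC2, of a zinc-finger protein (r = 0.9982), had 11.7 ± 0.464 and 5.40 ± 0.475 CPM, and CECR1, of an adenosine deaminase (r = 0.9982), 6.75 ± 0.7 and 0.886 ± 0.223 CPM. RPUSD4 (r = 0.9981) had 66.1 ± 0.503 and 49.3 ± 2.57 CPM, and the prostaglandin receptor gene PTGER3 (r = 0.9977) 90.5 ± 3.73 and 27.9 ± 3.74 CPM. A total of 32 genes had a correlation above 0.99.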

How the data were processed

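Raw counts per gene and library were deposited by the authors without normalization, for 57773 genes. The last 5 rows name no gene, held 22.4 to 24.3% of the summed counts of a library's column and were set aside. The submitters' processing notes name hg19, DESeq2, HTSeq and TopHat2 2.1.1. Libraries were strand-specific, per the labels' protocols, and the strand setting of the counting is not given in the sources used. The authors also deposited a DESeq2 table with a mean signal per gene, a log2 fold change with its SE, a Wald score and p-values; only its log2 values were quoted. All 6 count columns were used.

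The counts went into edgeR 4.0.16 under R 4.3.3: filterByExpr by genotype (14835 genes kept), TMM scaling, robust quasi-likelihood F tests with genotype as the only term, and Benjamini-Hochberg adjustment over all tested genes, called under 0.05. The biological coefficient of variation was 0.0545 and the prior count 0.125. The fit was tested on simulated data. Alternatives used DESeq2 1.42.0, limma 3.58.1, other scalings, no filter, a replicate block, single libraries left out, a prior count of 2, coding length and a wider window of neighbours. Symbols came from the authors' table, otherwise by Ensembl identifier. Positions, order, transcripts and lengths came from GENCODE v29 on GRCh38, another build than that of the counts, and start regions from RefSeq (GRCh38.p14), which held all 7 members.

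Members and lists were chosen with earlier results of these data known. Named genes were the members with TKTL2 and RPEL1, up to 4 called genes per list with the largest absolute change and an edgeR abundance (log2 of a mean CPM) of at least 2, the closest and all called tested neighbours of TKTL1, and the 5 genes most like it. Others are marked as chosen after their values were seen. Of the called list genes, SLC19A3 reached the abundance limit only through its wild-type level and ALDH1L1 only through its mutant level. A called neighbour of TKTL1 and a coding stretch are not reported here.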

Additional observations from a re-analysis of the deposited data

How the results depend on the processing

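Over 33 genes, 327 of 403 alternative values kept their side of the threshold, 73 lost a call, 3 gained one and 0 changed direction. TKTL1, chosen on these same counts, was called in each alternative, between -6.82 and -5.51 on the log2 scale, the latter with a prior count of 2. The prior count changes the fitted value and not the p-value, so calls of the members could not differ with it. Of 105 alternative counts and shares, 85 stayed within 1.5 times or 1 SD. With DESeq2 the calls were 1 for the thiamine list and 2 for the neighbours, with 20 genes on either side 9 neighbours were called, and with coding length the wild-type TKTL1 share was 3.72%. Leaving out 1 library gave 2420 to 3465 calls over all genes, 1 to 2 for the members, 2 to 3 for ribose and sugar phosphates, 1 to 3 for thiamine, 2 to 6 for other NADPH genes, 2 to 6 for upper glycolysis, 1 to 5 for purine and pyrimidine synthesis and 2 to 6 for the neighbours. The TKTL1 share ranged from 2.71 to 2.86% in the wild type and from 0.0242 to 0.0461% in the mutant. Over all genes, calls numbered 3142, 2289 with DESeq2 and 3574 with the replicate block. Libraries share replicate numbers, and the labels do not say whether these pair them. Deviations of same-numbered libraries correlated at 0.0656, 0.0786 and -0.105, and those of other pairs at -0.163 to 0.107. With 3 libraries per genotype these values cannot decide whether libraries were paired. With the replicate block 3 members were called, TKTL1, TALDO1 and RPE. The 2 to 6 TKTL1 counts per mutant library limit how precisely its remaining level is known. Alternatives for TXNRD1, TAL1, RUNX1 and ABL1 were chosen after seeing the data.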
